A study of Mus musculus with 6 samples.

Results

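The genes described here are 10 that are widely used to recognise astrocytes, *S100b*, *Gfap*, *Aqp4*, *Slc1a2*, *Slc1a3*, *Aldh1l1*, *Aldoc*, *Gja1*, *Glul* and *Sparcl1*, and they were read by gene symbol from a table of 53378 usable genes. They were followed in neural stem cells (NSCs), dividing cells of the embryonic brain that can give rise to neurons and glia, taken from the E14.5 telencephalic cortex of mice. All cells were *Tbl1xr1* flox/flox, received a lentivirus and were sorted for green fluorescence. The 3 control libraries (control 1, control 1_1 and control 2) came from cells that received GFP only, and the 3 libraries labelled Cre (Cre 2, Cre 2_2 and Cre 3) came from cells that received Cre-GFP, a recombinase that removes the floxed part of *Tbl1xr1*. The promoter of the viruses and the number of embryos or cultures behind the libraries are not given in the sources used here. The growth protocol holds both an expansion medium with growth factors and a serum step for differentiation, and the labels call all 6 libraries NSCs without naming a differentiation step. The values are normalized counts, that is, reads on a gene divided by 1 size factor per library. The recovered totals ran from 7510615 to 14828100 reads on genes per library and were deeper in the libraries labelled Cre, with medians of 7762821 and 12210170. Nothing in the labels says that libraries 1 and 1_1, or 2 and 2_2, were separate cultures, so all p-values measure the spread between these libraries, which may be technical.

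The label Cre was checked first on the targeted gene. *Tbl1xr1* stood at 2521.81, 2189.81 and 2720.64 normalized counts in control 1, 1_1 and 2, and at 3774.37, 3463.36 and 2905.49 in Cre 2, 2_2 and 3. Thus the transcript as a whole was not lower in the libraries labelled Cre (log2 fold change 0.45, SE 0.14, limma adjusted p = 0.06; adjusted p = 0.0238 without Cre 3 and 0.0398 with DESeq2). A gene-wide value cannot resolve the floxed part from the rest of the transcript, so it does not check the deletion. The study describes its own check of genotype, transcript and protein in the sorted cells, which was not analysed here. Directions below are therefore given for the libraries as labelled.

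Astrocytes clear glutamate from synapses through transporters and turn it into glutamine, keep water and potassium in balance at their end feet on vessels, are coupled to each other by gap junctions and secrete proteins that act on synapses. Several of the genes behind these tasks are already transcribed in radial glia and cultured NSCs, while others come on as the cells mature. *S100b*, the gene the others are set against, codes for a small calcium-binding protein that is a common label of astrocytes and is also found in part of the oligodendrocyte lineage.

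The sequences just before the transcription start are shown for *S100b*, *Slc1a2* and *Glul*, 3 of the genes called higher below, and for *Aldh1l1*, whose values lay on the other side. Each is the stretch of 250 bases upstream of a RefSeq start on GRCm38.p6 (the mm10 assembly), 5′ to 3′ on the strand of the gene. Promoter entries were used for 8 of the 10 genes. *Sparcl1* had no entry, and *Aqp4* was left out of the promoter counts. Capitals mark any match, on either strand, to 8 short motifs. Those of signalling factors were TTCNNNGAA for STAT, the effectors of cytokines, then TGGGAA for RBPJ, the partner of Notch, and TGANTCA for AP-1. Those of factors of glial fate were TTGGCA for nuclear factor I and ACAAAG for the SOX family. The general promoter elements were TATAAA as the TATA box, GGGCGG as the box bound by Sp1, called GC box here, and CCAAT as the box of that name.
*S100b*, chr10:76253586-76253835, plus strand: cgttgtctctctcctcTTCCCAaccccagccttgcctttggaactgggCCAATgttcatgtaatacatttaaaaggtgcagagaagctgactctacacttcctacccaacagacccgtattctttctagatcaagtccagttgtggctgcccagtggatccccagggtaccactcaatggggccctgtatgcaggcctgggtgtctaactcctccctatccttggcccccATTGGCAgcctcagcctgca
*Slc1a2*, chr2:102706188-102706437, plus strand: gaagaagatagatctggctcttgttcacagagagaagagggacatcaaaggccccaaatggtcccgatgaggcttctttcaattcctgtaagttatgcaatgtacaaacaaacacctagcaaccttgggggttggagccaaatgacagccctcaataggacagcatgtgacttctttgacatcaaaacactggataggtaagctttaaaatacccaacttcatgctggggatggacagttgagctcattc
*Glul*, chr1:153899679-153899928, plus strand: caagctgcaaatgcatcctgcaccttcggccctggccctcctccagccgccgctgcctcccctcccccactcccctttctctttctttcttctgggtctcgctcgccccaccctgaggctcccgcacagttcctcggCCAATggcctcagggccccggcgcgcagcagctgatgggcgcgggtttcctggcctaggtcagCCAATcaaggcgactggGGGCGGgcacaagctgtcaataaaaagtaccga
*Aldh1l1*, chr6:90550543-90550792, plus strand: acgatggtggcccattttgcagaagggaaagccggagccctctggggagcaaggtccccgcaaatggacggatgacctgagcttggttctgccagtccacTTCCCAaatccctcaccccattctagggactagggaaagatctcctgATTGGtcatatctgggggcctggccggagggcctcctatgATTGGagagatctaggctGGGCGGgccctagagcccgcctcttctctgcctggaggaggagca
The starts used for *Slc1a2* and *Aldh1l1* lie inside the annotated spans of these genes, which start at 102658239 and 90550768, so other starts exist. The whole *Slc1a2* window and the end of the *Aldh1l1* window lie within the annotated gene.

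The 4 windows had little in common. *Glul* was rich in G and C (64.8%) and held 15 CpG dinucleotides, against a median of 52.4% and 6 over 32851 RefSeq promoters of the same length. *S100b* had 53.6% GC and 2 CpG, *Slc1a2* 44.8% and 1, and *Aldh1l1* 59.6% and 7. The CCAAT box, found in 33.8% of all promoters, matched in *S100b* at positions -202 and -20, in *Glul* at -113 and -50 and in *Aldh1l1* at -103 and -63, counted from the start. In *S100b* the match at -20 overlaps that of nuclear factor I at -19 (12.3% of all promoters). RBPJ matched at -234 in *S100b* and at -150 in *Aldh1l1* (21.6% of all promoters), and the GC box at -33 in *Glul* and at -45 in *Aldh1l1* (32.7%). *Slc1a2* held no match to any of the 8 motifs in this window. SOX matched in none of the 9 promoter entries used for the astrocyte genes, which did not cover *Aqp4* or *Sparcl1* (16.5% of all promoters). STAT matched in *Aldoc* and *Slc1a3* (7.02%), AP-1 in *Gja1* (6.75%) and the TATA box in *Slc1a3* (12.4%). These are descriptions of letters in a window and say nothing about binding.

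Of the 10 astrocyte genes, 9 passed the filter on low values (a mean of at least 10 normalized counts) and 4 stood higher in Cre at a limma adjusted p under 0.05, namely *S100b*, *Aqp4*, *Slc1a2* and *Glul*. None was lower by limma, edgeR or DESeq2. At an unadjusted limma p under 0.05, 6 were higher, the 4 called genes with *Gja1* and *Slc1a3*, and 1, *Aldh1l1*, was lower. The share of all genes past that unadjusted level was not computed. Among all 14840 genes tested, 4.74% were called higher and 5.22% lower. The groups did not overlap for 6 genes with the libraries labelled Cre above, which were the 4 called genes with *Gja1* and *Slc1a3*, and for 1 with them below, *Aldh1l1*. Over all tested genes these shares were 14.7% above and 15.5% below. *Aldoc* and *Sparcl1* overlapped, and *Gfap*, the classic intermediate filament of astrocytes, was too rare to be tested. The median log2 fold change of the 9 tested genes was 0.43, against -0.001 over all tested genes. Since RNA was taken from whole cultures, more cells of a type and more RNA per cell cannot be told apart here.

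**Figure D1:**
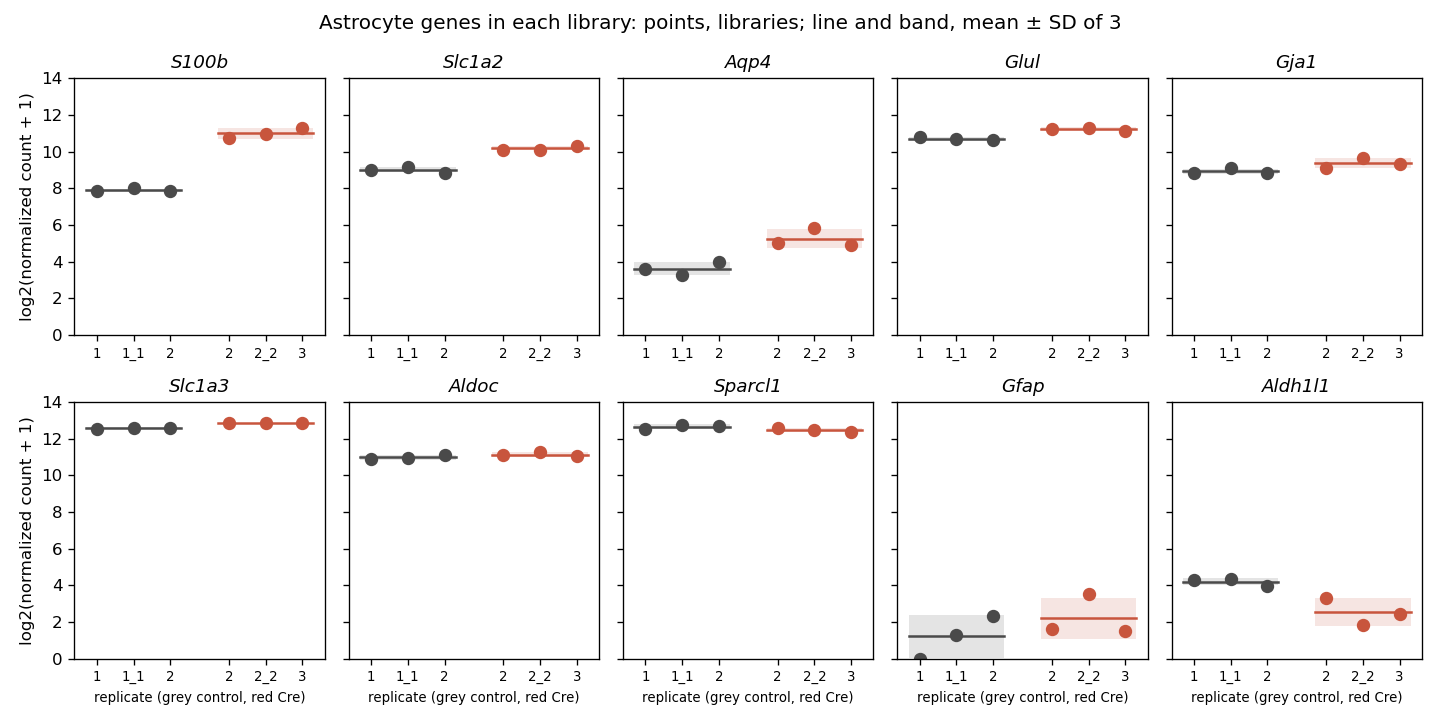
Log2(normalized count + 1) of the 10 astrocyte genes in each library, control in grey and Cre in red, with the mean as a line and ± SD (n = 3) as a band. *S100b*, *Slc1a2*, *Aqp4*, *Glul*, *Gja1* and *Slc1a3* had all Cre points above all control points, *Aldh1l1* had them below, and *Aldoc*, *Sparcl1* and *Gfap* overlapped.

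*S100b* (ENSMUSG00000033208, chr10:76253836-76261319 on GRCm38) was at 232.18, 254.53 and 226.72 normalized counts in control 1, 1_1 and 2. In Cre 2, 2_2 and 3 it was at 1705.74, 1979.19 and 2506.15. All Cre libraries lay far above all control libraries, and Cre 3 was the highest. The mean rose from 238 ± 14.7 to 2064 ± 407 (SD, n = 3), a ratio of 8.68 and a log2 fold change of 3.10 (SE 0.15, 95% interval 2.76 to 3.43, limma adjusted p = 7.39e-07). It ranked 19 by size among the 704 genes called higher. Under all 16 alternatives tried the change passed the threshold, at 2.95 to 3.22.

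*S100b* was not followed by its own gene family. Of 14 listed S100 genes, calcium-binding proteins of the same fold, 6 passed the filter. All 6 had a negative log2 fold change, where 49.9% of all tested genes had a positive one. The test called 2 of the 6 lower and none higher, beside 5.22% and 4.74% of all genes tested. *S100a4*, a family member linked to cell motility, fell from 153.25, 112.64 and 121.36 to 63.02, 37.88 and 73.42 normalized counts (log2 fold change -1.18, SE 0.27, adjusted p = 0.0185). *S100a16* fell from 390.94, 396.42 and 410.76 to 256.93, 231.58 and 286.52 (-0.63, SE 0.14, adjusted p = 0.0169). Both calls were lost without any 1 of the control libraries or without Cre 2_2, at adjusted p-values of 0.0516 to 0.106 for *S100a4* and 0.0647 to 0.08 for *S100a16*. *S100a5* and *S100a9* had no read in any library.

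The 5 genes whose pattern over the 6 libraries was most like that of *S100b* were *Bace2*, *Gm20515*, *Chl1*, *Dmrta2* and *Hotairm1*. Likeness was the root mean square difference between a gene and *S100b*, over the 6 libraries, of log2(normalized count + 1) after subtraction of the control mean, and it was 0.22, 0.25, 0.28, 0.31 and 0.36 in this order. *Bace2* codes for a protease related to beta-secretase, *Chl1* for an adhesion molecule of the L1 family and *Dmrta2* for a transcription factor of the cortical hem and cortical progenitors. Their log2 fold changes were 2.84 for *Bace2*, 2.72 for *Chl1*, 3.20 for *Dmrta2* and 2.88 for *Hotairm1*. *Gm20515* had at most 3 reads in each control library, so its value of 2.93 depends on the pseudocount. It passed the filter only through the libraries labelled Cre. Among the other 9 of the 10 astrocyte genes the nearest was *Aqp4* at 1.13, which ranked 136 of 14839 genes, followed by *Slc1a2* at 1.37 (rank 298). Of the further astrocyte genes described below, *Id4* at 0.39 (rank 8), *Serpina3n* at 0.46 (rank 9) and *Hepacam* at 0.86 (rank 57) lay nearer. *Id4* had at most 11 reads in each control library and *Serpina3n* at most 2. Both passed the filter only through the libraries labelled Cre, and their distances depend in part on the pseudocount.

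The 2 glutamate transporter genes of astrocytes behaved unequally. *Slc1a2*, which codes for GLT-1, the main glutamate transporter of mature astrocytes, was at 518.50, 570.49 and 464.11 normalized counts in the control libraries and at 1103.92, 1108.83 and 1266.95 in the libraries labelled Cre. The groups lay well apart, and the mean rose from 518 ± 53.2 to 1160 ± 92.7 (SD, n = 3). The log2 fold change was 1.16 (SE 0.13, 95% interval 0.88 to 1.45, limma adjusted p = 0.000382), a ratio of 2.24. It passed under all 16 alternatives, with adjusted p-values up to 0.00483.

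*Slc1a3*, which codes for GLAST, the transporter that radial glia and immature astrocytes already carry, was at 5810.82, 6231.51 and 6138.77 in the control libraries and at 7306.35, 7464.78 and 7453.09 in the libraries labelled Cre. The Cre values were tightly grouped above the controls, but the step was small, from 6060 ± 221 to 7408 ± 88.3 (SD, n = 3). The log2 fold change of 0.29 (SE 0.11, 95% interval 0.05 to 0.53) did not pass the test (limma adjusted p = 0.126), nor did it under any of 16 alternatives. Among other members of the same family, *Slc1a5*, which carries neutral amino acids, fell from 188.13, 203.33 and 224.05 to 102.50, 79.20 and 95.80 (log2 fold change -1.15, SE 0.18, adjusted p = 0.00301).

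*Glul* codes for glutamine synthetase, which turns the glutamate taken up into glutamine. It was at 1778.48, 1645.65 and 1569.70 in the control libraries and at 2421.83, 2548.23 and 2209.78 in the libraries labelled Cre. All Cre libraries lay above all control libraries, and the mean rose from 1665 ± 106 to 2393 ± 171 (SD, n = 3). The log2 fold change was 0.52 (SE 0.11, 95% interval 0.27 to 0.77, limma adjusted p = 0.016). The call was lost without control 1, control 1_1, control 2 or Cre 2_2, at adjusted p-values of 0.057, 0.0668, 0.0848 and 0.0799, and at 0.0558 with control 1 and 1_1 averaged.

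Of 14 listed genes that make, use or carry glutamate and glutamine beside *Glul*, 12 were tested, 1 was higher and 1 lower, counts near the shares of all genes (4.74% and 5.22%). The higher one was *Abat*, which breaks down GABA, from 150.50, 137.50 and 154.70 to 232.00, 342.63 and 236.38 (log2 fold change 0.85, SE 0.18, adjusted p = 0.0153, but 0.0561 to 0.0682 without any 1 control library or Cre 2_2). The lower one was *Slc1a5*, described above.

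*Aqp4*, the water channel of astrocyte end feet, rose but from a very low level. It was at 11.01, 8.78 and 14.67 normalized counts in the control libraries, or 12, 6 and 11 reads, and at 31.16, 56.82 and 28.65 in the libraries labelled Cre, or 45, 66 and 32 reads. The groups did not overlap and Cre 2_2 was the highest. The mean went from 11.5 ± 2.98 to 38.9 ± 15.6 (SD, n = 3), with a log2 fold change of 1.64 (SE 0.39, 95% interval 0.79 to 2.48, limma adjusted p = 0.0228). The call was lost without control 1, control 1_1, control 2 or Cre 2_2, at adjusted p-values of 0.0833, 0.0823, 0.0501 and 0.106. Without any 1 of these libraries the astrocyte genes called higher were therefore 2, *S100b* and *Slc1a2*.

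*Gja1*, which codes for connexin 43, the main gap junction protein of astrocytes, was at 461.60, 541.23 and 460.11 in the control libraries and at 545.03, 792.02 and 653.62 in the libraries labelled Cre. The groups met without overlapping, since Cre 2 was barely above control 1_1. The log2 fold change of 0.43 (SE 0.16, 95% interval 0.09 to 0.77) did not pass the test (limma adjusted p = 0.106), and it passed without Cre 2 (0.56, adjusted p = 0.0183). *Gjc3*, another connexin gene, known from myelinating glia, rose further, from 593.75, 615.84 and 738.84 to 3468.27, 5008.66 and 2782.82 (log2 fold change 2.49, SE 0.19, adjusted p = 3.07e-05). *Gjd2*, the connexin of electrical synapses, rose from 10.09, 5.85 and 12 to 33.24, 74.04 and 72.53 (2.53, SE 0.41, adjusted p = 0.00384), and passed the filter only through the latter. *Gjb6*, which codes for the other connexin of astrocytes, had a mean of 0 in the control libraries and 0.298 in the libraries labelled Cre, too low to test.

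*Aldoc* and *Sparcl1* were abundant in both groups and did not pass the test in either direction. *Aldoc*, a glycolytic aldolase of astrocytes, was at 1869.34, 1999.64 and 2227.19 in the control libraries and at 2193.29, 2455.26 and 2105.92 in the libraries labelled Cre. *Sparcl1*, which codes for the secreted synapse-organising protein hevin, was at 5925.53, 6958.52 and 6557.53 and then at 6247.45, 5719.75 and 5353.44. Both pairs of groups overlapped. The log2 fold change was 0.15 for *Aldoc* (SE 0.12, 95% interval -0.11 to 0.41, limma adjusted p = 0.481) and -0.17 for *Sparcl1* (SE 0.12, 95% interval -0.43 to 0.10, adjusted p = 0.432). These intervals leave room for a modest change in either direction.

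*Aldh1l1*, a folate enzyme used as a broad astrocyte marker, lay on the other side from *S100b*. It was at 18.35, 19.02 and 14.67 normalized counts in the control libraries, or 20, 13 and 11 reads, and at 9, 2.58 and 4.48 in the libraries labelled Cre, or 13, 3 and 5 reads. Every Cre library lay below every control library in normalized counts. In reads the groups overlapped, since Cre 2, a deeper library, equalled control 1_1 at 13 and exceeded control 2 at 11. Summed over the libraries of a group, the gene stood at 1.66 CPM (reads scaled to the total on genes) in control (exact 95% Clopper-Pearson interval 1.21 to 2.23) and 0.539 in Cre (0.334 to 0.825), intervals that cover counting error only. The log2 fold change of -1.65 (SE 0.51, 95% interval -2.78 to -0.52) missed the threshold (limma adjusted p = 0.065), and it passed without Cre 2 (-2.04, adjusted p = 0.0233). The gene passed the filter only through the control libraries.

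The enzymes around *Aldh1l1* in folate metabolism were set beside it. Of 18 listed genes, 15 were tested, 4 were lower and 1 higher, beside 5.22% and 4.74% of all genes tested. The median over the 15 was -0.32 on the log2 scale, against -0.001 for all genes. *Fpgs*, which adds glutamate to folates, fell from 85.35, 83.38 and 82.69 to 42.25, 33.57 and 29.55 (log2 fold change -1.25, adjusted p = 0.00822). *Shmt1*, a cytosolic serine hydroxymethyltransferase, had a change of -0.95 (adjusted p = 0.00775), *Gart*, a purine synthesis enzyme, -0.94 (adjusted p = 0.0105) and *Slc19a1*, the reduced folate carrier, -0.82 (adjusted p = 0.0198). The one that rose was *Aldh1l2*, the mitochondrial paralog of *Aldh1l1*, from 684.60, 1110.26 and 1086.92 to 1539.53, 1727.81 and 1986.83 (0.89, SE 0.18, adjusted p = 0.0119). All 5 calls were lost without some 1 library: *Fpgs* without control 1 (adjusted p = 0.0521), *Shmt1* without control 2 (0.0528), *Gart* without control 1 or 2 (0.0622 and 0.0607), *Slc19a1* without control 1_1, control 2 or Cre 2_2 (0.091, 0.0806 and 0.0563) and *Aldh1l2* without Cre 2_2 (0.0546).

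*Gfap* was close to absent in all libraries. It had 0, 1 and 3 reads in control 1, 1_1 and 2 and 3, 12 and 2 reads in Cre 2, 2_2 and 3, which are 0.00, 1.46 and 4.00 against 2.08, 10.33 and 1.79 normalized counts. The groups overlapped, and 12 of the 17 reads of the libraries labelled Cre came from Cre 2_2. The summed level was 0.151 CPM in control (exact 95% Clopper-Pearson interval 0.0412 to 0.387) and 0.437 in Cre (0.254 to 0.699), counting error only. In the fit without a filter on low values its log2 fold change was 0.99 (limma adjusted p = 0.578). At this depth a difference in *Gfap* between the groups was not detectable.

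To ask which genes do not follow *S100b*, the change of each gene was compared with that of *S100b* within each library, as the difference of their log2 values. All 8 other tested astrocyte genes differed from it at a limma adjusted p under 0.05. So did 99.6% of all genes, so this says that the change of *S100b* was unusually large and nothing particular about the other astrocyte genes. *Aqp4* was the nearest, 1.46 below *S100b* on the log2 scale (difference -1.46, SE 0.44, adjusted p = 0.00537), and *Slc1a2* followed (-1.93, SE 0.19, adjusted p = 9.53e-08). *Glul* (-2.57), *Gja1* (-2.66), *Slc1a3* (-2.81), *Aldoc* (-2.95) and *Sparcl1* (-3.26) came after them. *Aldh1l1* was the farthest (-4.75, SE 0.57, adjusted p = 1.1e-06). By the adjusted p, *Aqp4*, *Slc1a2* and *Glul* were higher along with *S100b* to a smaller degree, and *Gja1*, *Slc1a3*, *Aldoc*, *Sparcl1* and *Aldh1l1* were not called.

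**Figure D2:**
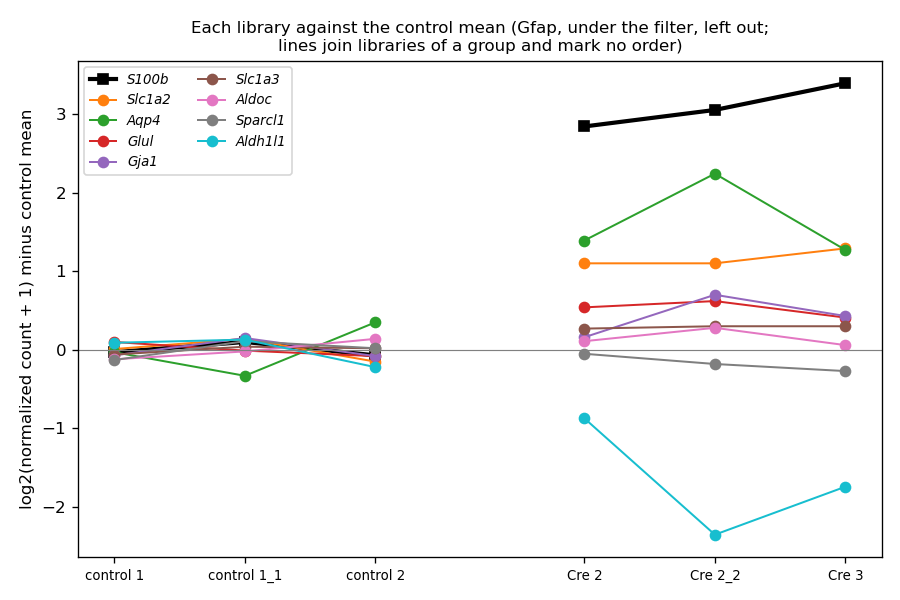
Log2(normalized count + 1) minus the control mean, on the y axis, in each of the 6 libraries on the x axis for *S100b* in black and the 8 other tested astrocyte genes in colour. In the libraries labelled Cre, *S100b* lay at 2.84, 3.05 and 3.39, above every other gene, and *Aldh1l1* at -0.87, -2.35 and -1.74, below every other gene.

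The members also differed in which Cre library stood highest. *S100b* was at 2.84, 3.05 and 3.39 above its control mean in Cre 2, 2_2 and 3, on the log2 scale, so Cre 3 was the highest. *Slc1a2* was at 1.10, 1.10 and 1.29, again with Cre 3 highest. *Aqp4* (1.39, 2.24 and 1.27), *Gja1* (0.16, 0.70 and 0.43), *Glul* (0.54, 0.62 and 0.41) and *Aldoc* (0.11, 0.28 and 0.06) were highest in Cre 2_2. *Aldh1l1* was lowest in that same library.

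**Figure D3:**
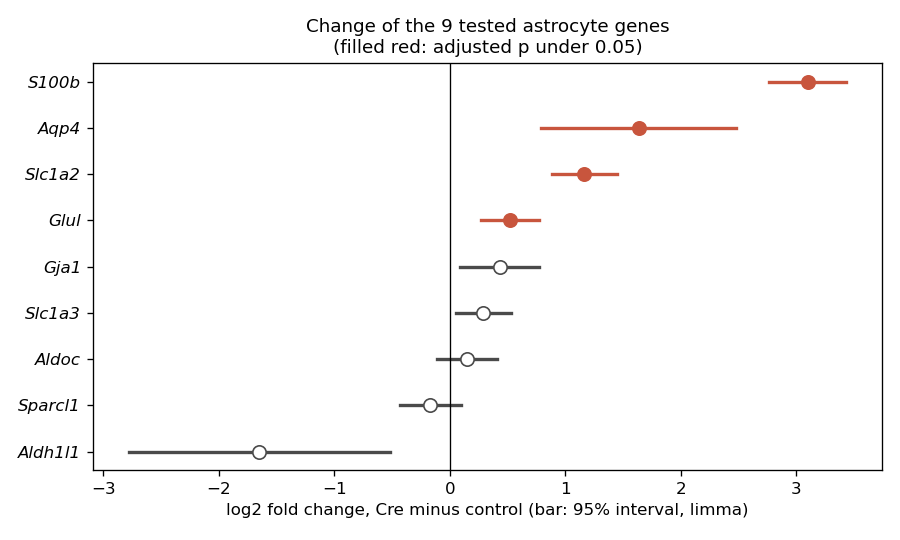
Log2 fold change, Cre minus control, of the 9 tested astrocyte genes on the x axis, with the 95% interval of the limma fit as a bar and genes past an adjusted p of 0.05 filled. The values run from 3.10 for *S100b* to -1.65 for *Aldh1l1*, and the wide bars of *Aqp4* and *Aldh1l1* belong to the genes with the fewest reads.

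Set on a scale that allows genes to be compared, normalized counts per kilobase of exon, the astrocyte genes spanned a wide range in control. *Sparcl1* was the highest at 2081 ± 167 (SD, n = 3), followed by *Slc1a3* at 710 ± 25.9, *Aldoc* at 623 ± 55.5 and *Glul* at 500 ± 31.7. *S100b* at 160 ± 9.93 and *Gja1* at 157 ± 14.9 formed the middle, *Slc1a2* stood at 39.4 ± 4.04, and *Aldh1l1* at 3.84 ± 0.519, *Aqp4* at 2.16 ± 0.56 and *Gfap* at 0.432 ± 0.48 closed the order. The libraries of *Slc1a3* and *Aldoc* overlapped, as did those of *S100b* and *Gja1*, and the other neighbours did not.

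In the libraries labelled Cre the order was the same at its top and changed below it. *Sparcl1* stayed first at 1854 ± 144 per kilobase (SD, n = 3) and *S100b* moved to second place at 1391 ± 274, above *Slc1a3* at 868 ± 10.3. *Glul* (719 ± 51.4) and *Aldoc* (690 ± 55.7) overlapped. *Gja1* at 214 ± 39.9, *Slc1a2* at 88.2 ± 7.05 and *Aqp4* at 7.31 ± 2.93 came next, and *Aldh1l1* at 1.19 ± 0.731 and *Gfap* at 1.12 ± 1.15 overlapped at the bottom. *S100b* and *Aqp4* thus stood higher in this order than in control, and *Slc1a3*, *Aldoc* and *Aldh1l1* lower.

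**Figure D4:**
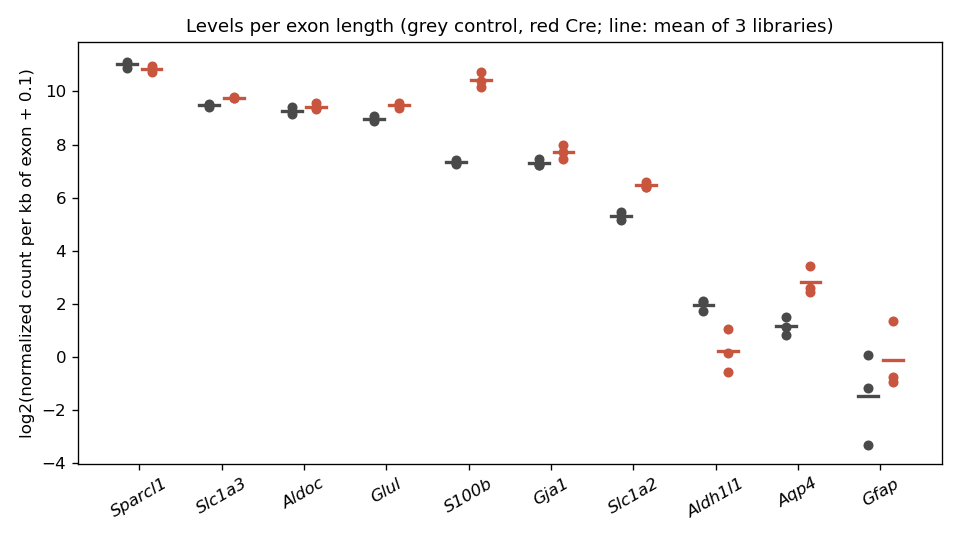
Levels of the 10 astrocyte genes as log2(normalized count per kilobase of exon + 0.1), control in grey and Cre in red, each point a library and each line the mean of the 3 log2 values. *Sparcl1* is highest in both groups, *S100b* lies level with *Gja1* in control and just under *Sparcl1* in Cre, and *Aldh1l1*, *Aqp4* and *Gfap* lie at the bottom.

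The 10 genes were then set beside 72 further genes of astrocytes, grouped by role. In the 61 tested genes the fit called 15 higher in Cre and 2 lower, beside 4.74% and 5.22% of all genes tested. The median over them was 0.39 on the log2 scale, against -0.001 for all genes tested. The groups did not overlap for 28 of the 61 with Cre above and for 4 with Cre below, beside 14.7% and 15.5% of all genes. The count of calls was 12 without control 1, control 1_1, control 2 or Cre 2_2, 20 without Cre 3 and 23 without Cre 2. Of the called genes, *Id4* and *Serpina3n* passed the filter only through the libraries labelled Cre, and *Kcnj10* only through the control libraries. The lists were chosen with earlier results of these data known, so these counts are descriptions only.

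Among 11 tested genes of ion, water and amino acid transport, 3 were higher and 1 lower. *Hepacam*, an adhesion protein of astrocyte end feet, rose from 309.26, 283.78 and 273.40 to 1055.44, 1083.86 and 1112.05 normalized counts (log2 fold change 1.91, SE 0.12, adjusted p = 6.48e-06). Its groups were clearly separated. *Atp1b2*, a sodium pump subunit, rose less (0.66, SE 0.15, adjusted p = 0.0201, and 0.0767, 0.0873 and 0.0946 without control 1, control 1_1 or Cre 2_2). *Kcnj10*, the potassium channel Kir4.1, fell from 48.64, 21.94 and 40.01 to 6.93, 6.03 and 1.79 (-2.74, SE 0.52, adjusted p = 0.00775, and 0.0628 and 0.0558 without control 1 or 2), and it passed the filter only through the control libraries. *Kcnj10* and *Aldh1l1* were thus both low in control and lower still in Cre, and only the former passed the test.

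Of 14 tested genes of metabolism and lipids, 2 were higher. *Apoe*, the lipid carrier, rose from 788.30, 825.02 and 974.89 to 1551.30, 3569.25 and 2076.37 (log2 fold change 1.39, SE 0.24, adjusted p = 0.00502), highest in Cre 2_2. *Mt3*, a brain metallothionein, rose from 381.76, 475.41 and 572.13 to 977.18, 1295.64 and 1154.14 (1.27, SE 0.17, adjusted p = 0.00105). The more abundant *Mt1* and *Mt2* had log2 fold changes of 0.31 and 0.40 (adjusted p = 0.118 and 0.146). *Fabp7*, the fatty acid binding protein of radial glia, had one of 0.38 (adjusted p = 0.122).

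Of 10 tested receptor and surface genes, 3 were higher. *Fgfr3*, a fibroblast growth factor receptor of glial precursors, rose from 344.13, 367.16 and 345.41 to 958.48, 1085.58 and 837.17 (log2 fold change 1.44, SE 0.13, adjusted p = 0.000113). *Ednrb*, the endothelin B receptor, had a change of 0.72 (adjusted p = 0.0108, and 0.0565 and 0.0631 without control 1_1 or 2), and *Grm5*, a glutamate receptor, one of 0.42 (adjusted p = 0.0331). The call of *Grm5* was lost without any 1 library other than Cre 2, at adjusted p-values of 0.057 to 0.152. Of 10 tested secreted proteins 3 were higher: *Il33*, an alarmin (1.44, SE 0.27, adjusted p = 0.00737), *Timp3*, a protease inhibitor (1.12, SE 0.18, adjusted p = 0.00323), and *Cst3*, cystatin C (1.02, SE 0.24, adjusted p = 0.0209, and 0.0586 to 0.0899 without any 1 control library or Cre 2_2).

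Of 12 tested transcription factors 3 were higher. *Id4*, which blocks partner transcription factors of the helix-loop-helix type, rose from 10.09, 7.31 and 6.67 to 78.26, 123.11 and 76.11 (log2 fold change 3.36, SE 0.33, adjusted p = 0.00018). Its control mean of 8.03 is under the filter of 10, so it was tested only through the libraries labelled Cre. Its change minus that of *S100b* was 0.26 (SE 0.38, adjusted p = 0.511), which does not show that both changed alike. *Sox9*, a factor needed for glial fate, rose from 3786.39, 4373.76 and 4655.75 to 7352.06, 10099.96 and 8517.68 (1.01, SE 0.14, adjusted p = 0.00175). *Nr2f1* rose by 0.66 on the log2 scale (adjusted p = 0.00569). *Nfia* and *Stat3*, which act on astrocyte genes, had values of 0.37 (adjusted p = 0.105) and -0.04 (adjusted p = 0.91). Of 10 genes of the reactive state 4 were tested. *Serpina3n* was higher, from 1.84, 2.93 and 1.33 to 14.54, 24.97 and 15.22 (2.66, adjusted p = 0.0112), *Timp1* was lower (-1.27, adjusted p = 0.041) and *Lcn2* and *Steap4* had no read. With at most 2 reads in each control library, the value of *Serpina3n* depends on the pseudocount, and the gene passed the filter only through the libraries labelled Cre. It had a value in 9 of 16 alternatives, since its mean fell under the filter with TMM or total-count scaling, with Cre 2 and 2_2 averaged, without any 1 Cre library or with a mean of at least 50. The call of *Timp1* was lost without any 1 library other than Cre 3, at adjusted p-values of 0.0507 to 0.179.

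**Figure D5:**
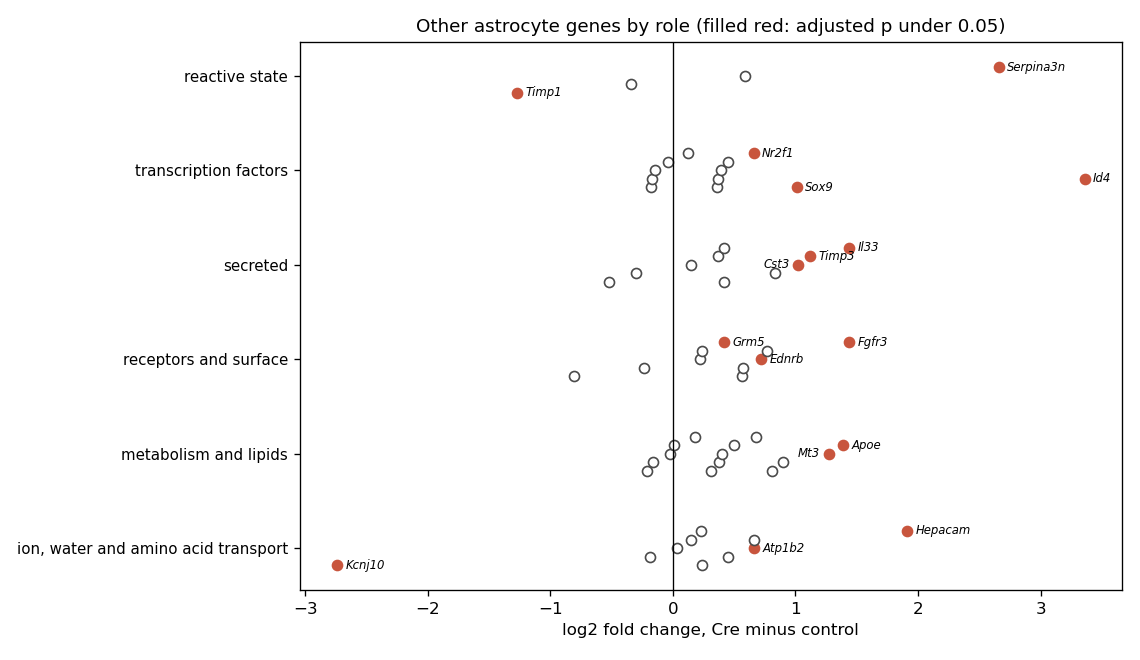
Log2 fold change, Cre minus control, of tested further astrocyte genes on the x axis, grouped by role on the y axis, with genes past a limma adjusted p of 0.05 filled and named. The filled points lie right of 0 except *Kcnj10* at -2.74 and *Timp1* at -1.27, and *Id4* is farthest right at 3.36.

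Markers of other cell types that a culture from cortex could hold were read in the same libraries, and their part in the results above was not tested. Among all genes tested, 4.74% were called higher and 5.22% lower, and 49.9% had a positive log2 fold change. Of 15 oligodendrocyte lineage genes 7 were tested and all 7 had positive log2 fold changes, with a median of 0.64. Among the 7, *Mbp* had a control mean of 7.23, under the filter of 10. It was tested only through the libraries labelled Cre. *Sox10*, *Mog* and *Mag* were among those under the filter. The summed level of the 15 was 12909 to 14835 normalized counts in control and 17833 to 20139 in Cre, mostly from *Olig1* and *Olig2*. *Olig1* was not called (0.18, adjusted p = 0.554). The called ones were *Olig2* (0.71, adjusted p = 0.00747), *Pdgfra* (0.86, adjusted p = 0.0136, but 0.0702 without control 2 and 0.0693 without Cre 2_2) and *Cspg4* (0.64, adjusted p = 0.0285, but 0.0626 to 0.121 without any 1 control library or Cre 3), genes of oligodendrocyte precursors. Of 15 neuronal genes 9 were tested, with *Elavl4* higher (2.32, adjusted p = 3.7e-05), *Gap43* lower (-0.76, adjusted p = 0.00975, but 0.0571 without control 2) and *Stmn2* and *Slc32a1* at 0 reads. The neuronal sum was 17750 to 18864 in control and 15318 to 17323 in Cre, nearly all from *Map2* and *Gap43*. The mean of *Gap43* went from 8711 to 5196, while that of *Map2* went from 9210 to 10541 (0.19, adjusted p = 0.337). The lower sum in Cre thus reflects *Gap43*. All 12 genes of neural stem cells and radial glia were tested, and 2 were lower, *Sox1* (-2.27, adjusted p = 3.66e-05) and *Nes*, the intermediate filament nestin (-0.85, adjusted p = 0.00384). None was called higher, but 7 of the 12 had a positive log2 fold change, and the median over the 12 was 0.13. Their sum was 36869 to 41758 in control and 36803 to 39114 in Cre.

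Lists of vessels, immune cells, ependyma and choroid plexus were read in the same way. The summed 10 microglial genes were at 164 to 206 normalized counts in control and 168 to 274 in Cre, nearly all from *Csf1r*, with *C1qa*, *C1qb*, *Tmem119* and *Trem2* at 0 reads. The 8 endothelial genes summed to 28.0 to 46.8 and 16.1 to 29.8, with *Cdh5* and *Cldn5* at 0. The 8 pericyte and fibroblast genes summed to 3.67 to 12 and 8.31 to 23.3, with *Pdgfrb* and *Col1a2* at 0. The 8 genes of ependyma and choroid plexus summed to 630 to 695 and 438 to 589, mostly from *Otx2*, with *Ttr* and *Tmem212* at 0. The 4 genes of these lists that were tested had log2 fold changes of 0.25 (*Csf1r*, adjusted p = 0.483), -1.34 (*Kdr*, adjusted p = 0.0677), 0.75 (*Foxj1*, adjusted p = 0.238) and -0.46 (*Otx2*, adjusted p = 0.0739).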

How the data were processed

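The authors prepared the libraries with a TruSeq RNA v2 kit, which does not mark strand. The methods name TopHat with mm9 and mm10, and the submitters' processing notes list STAR 2.7, DESeq2 and mm10. The counter, strand setting and annotation are not given in the sources used here. The deposited values are normalized counts (a signal: reads divided by a size factor). Beside these, the authors deposited the p-values, log2 changes and a score (test statistic) per gene of their own comparison, none of which was used. The table has 53379 genes, 873 of them without a name, and 1 with an empty value was left out.

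The value of 1 read was found from each library's lowest values, and 100% of values were then whole reads (within 0.01). Recovered totals are library sizes on genes. The main test was limma 3.58.1 (R 4.3.3) (lmFit, eBayes with trend) on log2(normalized count + 1). It covered the 14840 genes whose mean reached 10, with Benjamini-Hochberg adjustment over all of them, threshold 0.05, two-sided. With 3 against 3 libraries an exact permutation test cannot go below p = 0.1, so none is given. The change against *S100b* was fitted with limma to the log2 ratio of each gene to *S100b* per library. Alternatives were count tests on recovered reads with DESeq2 1.42.0 and with edgeR 4.0.16 (quasi-likelihood, TMM), a pseudocount of 0.5 or 5, no filter, a mean of at least 50, TMM or total-count scaling, averaging libraries 1 and 1_1 or 2 and 2_2, and leaving out each library. The script was tested on simulated data. Same-group libraries differed beyond sampling noise (chi-square per degree of freedom 5.85 to 36), and each was counted as a library of its own. Such spread does not show whether libraries 1 and 1_1, or 2 and 2_2, were separate cultures.

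The astrocyte genes and all lists were chosen with earlier results of these data known. Genes named with values were the astrocyte genes, the targeted gene, up to 4 called genes per list and direction, called S100 genes and paralogs, and the 5 genes most like *S100b*. *Gjb6*, *Mt1*, *Mt2*, *Fabp7*, *Nfia*, *Stat3*, *Olig1*, *Sox10*, *Mog*, *Mag*, *Map2*, *Csf1r*, *Kdr*, *Foxj1* and *Otx2* were named after their values were seen, as background of their lists. Some genes counted in the lists are not reported here by name or in the figures. Coordinates and promoters are from RefSeq on GRCm38.p6, and exon lengths from GENCODE M1 on mm9. RefSeq places no other gene over *S100b*, *Gfap*, *Slc1a3*, *Aldoc* or *Gja1*. Noncoding genes overlap *Aqp4*, *Slc1a2*, *Aldh1l1*, *Glul* and *Sparcl1*, whose reads could be shared without strand. Figures were drawn with matplotlib 3.10.9.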

Additional observations from a re-analysis of the deposited data

How the results depend on the processing

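The rise of *S100b* passed the threshold under all 16 alternatives. The count of astrocyte genes past the adjusted p, 4 in the fit reported, was 2 with control libraries 1 and 1_1 averaged, where *Aqp4* and *Glul* missed it, and 2 to 6 when single libraries were left out. It was 3 with a mean of at least 50, which removes *Aqp4*, and 4 under the other alternatives, edgeR and DESeq2 included. The 6 without Cre 2 added *Gja1* and *Aldh1l1*. Fits without 1 library have fewer residual degrees of freedom. The count of further astrocyte genes called was 12 to 23 when single libraries were left out, 13 with control 1 and 1_1 averaged and 22 with DESeq2. Over all values under an alternative of the 8 tested astrocyte genes other than *S100b*, 111 of 123 stayed on the same side of the threshold with the same sign, 10 lost the call and 2 gained it, and 0 changed sign. For the other genes named, 583 of 645 did so, 60 lost the call and 2 gained it. *Aldh1l1* gave no value with a mean of at least 50, without control 1, without control 1_1 or with both averaged, since its mean then fell under the filter. The scalings moved the median log2 fold change of all genes to at most 0.007. No paired analysis was possible because the groups share 1 replicate number only. *Gfap*, *Aldh1l1* and *Aqp4* are limited by their few reads.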

Other observations

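The genes beside *S100b* on chromosome 10 were read after the values of *S100b* were known. *Prmt2*, an arginine methyltransferase gene whose nearer end lies 16 kb away, stood at 523.08, 604.13 and 656.15 normalized counts in control 1, 1_1 and 2 and at 903.77, 1097.63 and 1159.51 in Cre 2, 2_2 and 3 (log2 fold change 0.82, SE 0.14, limma adjusted p = 0.00463). *Dip2a*, 1.72 kb away on the other side, was at 0.19 on the log2 scale, short of the threshold (adjusted p = 0.566). The next tested coding genes were *Zfp280b* and *Gm867* beyond *Prmt2*, and *Pcnt* and *Ybey* beyond *Dip2a*. In this order these 4 had values of -0.19, 1.26, -0.14 and 0.10 and did not pass the test. Beside *Aldh1l1*, 6 tested coding genes were read, the nearest on each side in equal number. They had values of -0.32 to 0.42 and none passed, with adjusted p-values of 0.25 to 0.639.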
